A study of Xenopus laevis with 8 samples.

Results

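The genes described here encode splicing factors and heterogeneous nuclear ribonucleoproteins (hnRNPs) of Xenopus laevis, measured in hindlimb buds after exposure to cyclopamine. They were chosen by name alone: the array annotation's gene symbol, without its L or S ending, had to begin with snrp, srsf, sf3a, sf3b, hnrnp, prpf, u2af or lsm and a digit, or be one of a short set of named helicases, exon junction proteins and other factors such as srrm1, eftud2, ptbp1 and celf1. This gave 142 probe sets for 99 genes under 78 symbols, out of 15491 probe sets in all. X. laevis carries a pair of subgenomes, and a gene retained from both has an L copy and an S copy, which are counted as separate genes. Each gene was placed in 1 of 7 classes by its symbol, and 98 of the 99 genes could be tested among 12380 genes and unnamed probe sets. The exception, srrm2.S, lay on all 8 arrays at the floor to which dim intensities were raised, the 20th percentile of all intensities.

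Most pre-mRNAs of animals carry introns, which the spliceosome removes. Small nuclear RNAs packed in Sm or Lsm protein rings (the snRNPs) recognise the splice sites and form its core. The SF3A, SF3B and U2AF proteins act at the branch point and the 3′ splice site, and some PRPF proteins build the tri-snRNP. SR proteins, which bind exons and usually favour their inclusion, and hnRNPs, which coat the transcript and often oppose it, tune the choice of sites, and dividing and growing cells make much use of this machinery.

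The study exposed stage 52 tadpoles for 24 hours either to cyclopamine at 1 µg/ml, an alkaloid that blocks the hedgehog receptor component Smoothened, or to its vehicle ethanol. RNA from pools of 18 to 22 whole hindlimb buds went onto 8 Affymetrix arrays, 4 cyclopamine and 4 ethanol, as 4 pairs exposed and processed together. Pairs 3 and 4 came from clutch B and pairs 1 and 2 from clutch A. Each array held 1 pool of many animals. Whole buds hold mesenchyme, epidermis and other tissues, so fewer cells of a type and less RNA per cell cannot be told apart. Of 13 tested limb mesenchyme genes, 12 were above the floor on all 8 arrays. Cyclopamine array 4 stood apart in cartilage genes: 6 cartilage genes, 5 of them above the floor on all arrays, averaged a log2 intensity of 9.64 there, against 8.41 to 8.85 on the other 7 arrays. The mean of 12 muscle genes, 9 above the floor on all arrays, ran between 7.30 and 8.69 over the 8 arrays. That of 8 epidermal genes, 7 above the floor on all arrays, was lowest on cyclopamine array 4, at 8.34, against 8.50 to 9.53 elsewhere. That of 4 endothelial genes, 3 above the floor on all arrays, was highest on cyclopamine array 4, at 7.19, against 6.56 to 7.03 elsewhere. Values without cyclopamine array 4 or its pair are given below for that reason.

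Averaged over its probe sets, each of the 98 tested genes was above the floor on all 8 arrays, compared with 78.9% of all genes tested. Their mean log2 intensity, after quantile normalisation between arrays, had a median of 10.43, against 7.95 over all genes, and ran between 6.04 and 13.39. Class medians were 10.13 for the snRNP and Lsm genes, 10.84 for the SR genes and 10.68 for the hnRNP genes. These are probe set brightnesses, which depend on the probes as well as on the RNA, so no gene was ranked against another. Because the splicing genes were bright as a group, the treatment result is also set against 2529 genes. These lie at or above the splicing genes' lower quartile of log2 intensity, 9.57. This set, called the equally bright genes below, includes the splicing genes at or above that level and leaves out the dimmer ones.

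With cyclopamine, no splicing factor or hnRNP gene passed an adjusted p under 0.05 in limma, a linear model fitted to all 12380 genes with p-values adjusted over all of them by the Benjamini-Hochberg method. The call was also rare elsewhere, since 2 of 12380 genes passed (0.0162%). The lowest adjusted p among the splicing genes was 0.582, for srrm1.S. The differences were small and mostly of one sign: 80 of the 98 genes lay below 0 (81.6%), against 49.9% of all genes and 53.1% of the equally bright genes. The median log2 difference, cyclopamine minus ethanol, was -0.10 over the 98 genes, which is 7.02% lower with cyclopamine, against 0.0005 over all genes and -0.01 over the bright ones. No gene differed by more than 0.5 on the log2 scale, and the standard error of a single gene had a median of 0.131. Array means of the 98 genes overlapped slightly, at 10.20 to 10.289 on cyclopamine arrays and 10.287 to 10.43 on ethanol arrays. Those of the snRNP and Lsm, SR and hnRNP classes overlapped as well. Of 12 muscle genes, 10 lay above 0 with cyclopamine (median 0.34). Their means were 7.47 to 8.69 on cyclopamine arrays and 7.30 to 8.50 on ethanol arrays. The muscle medians in pairs 1 to 4 were 0.07, 0.56, -0.03 and 1.04. Of 6 cartilage genes, 5 lay above 0 (median 0.19), with means of 8.56 to 9.64 on cyclopamine arrays and 8.41 to 8.85 on ethanol arrays. Their medians in pairs 1 to 4 were -0.10, -0.08, 0.03 and 1.31. All 7 red blood cell genes lay below 0 (median -0.07). Medians were 0.05 for limb mesenchyme, 0.02 for epidermal and 0.01 for endothelial genes. None of these genes passed the adjusted threshold, and the array means of the groups overlapped in each list. The part of these tissues in the values of the splicing genes was not tested.

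At an unadjusted p under 0.05, 7 splicing genes were lower with cyclopamine, where 3.88% of all genes were, and 0 were higher, where 2.4% of all genes were. The 4 cyclopamine arrays lay wholly below the 4 ethanol arrays for 7 genes (background 2.31%) and wholly above for 0 (background 1.2%). In the pairs, 32 genes were lower in 4 of 4 and 2 were higher in 4 of 4, against backgrounds of 9.41% and 6.47%. Among the equally bright genes the shares on the lower side were 5.1% at the unadjusted threshold, 3.56% without overlap and 13.9% in 4 of 4 pairs, and those on the higher side 2.53%, 1.38% and 7.91%. The count at the unadjusted threshold was 3 without cyclopamine array 4, where 3.44% of all genes were lower, and 3 without ethanol array 1, where 2.88% were, so that both counts were near the background. Ethanol array 1 had the highest level of the splicing genes (median deviation 0.18). Without ethanol array 2 it was 10, where 3.74% of all genes were lower. With both arrays of pair 4 left out, a choice made after the data were seen, it was 5, where 3.37% of all genes were lower, and 81 genes lay below 0. With clutch as a block it was 13, where 6.01% of all genes were lower, and still no gene passed the adjusted threshold (lowest adjusted p 0.349 by limma).

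**Figure D1:**
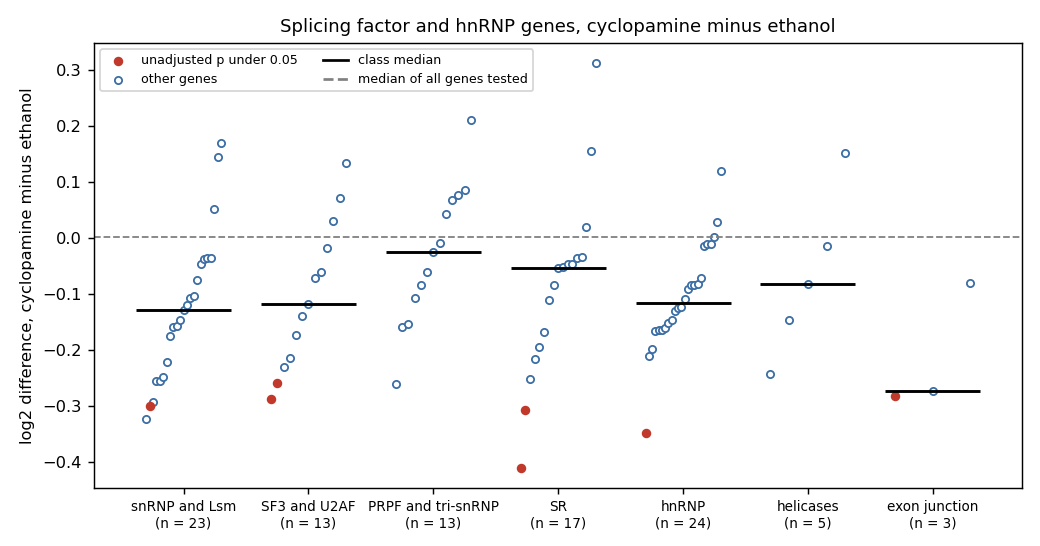
Log2 difference, cyclopamine minus ethanol, of each of the 98 genes by class (vertical axis), with red points for an unadjusted p under 0.05, black bars for class medians and a dashed line for the median of all genes tested. Of the 98 points 80 lie below 0, and all 7 red points do.

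The snRNP and Lsm genes gave a median difference of -0.13, with 20 of 23 below 0. The class holds proteins of different roles, and these were separated after the values had been seen. All 12 snrp genes, which encode Sm ring proteins and proteins specific to the U1 or U2 snRNP, lay below 0 (between -0.30 and -0.04). The same held for the 7 genes of LSm2 to LSm8, the ring that caps U6 RNA (between -0.32 and -0.10). The lsm12 and lsm14 genes, which carry Lsm domains but are not part of that ring, included 3 of 4 above 0. Lsm14 proteins are known from Xenopus oocytes as parts of translationally silent messenger particles. Within single pairs the signs were mixed. In pairs 1 to 4, 9, 11, 8 and 10 of the 12 snrp genes and 7, 4, 5 and 7 of the 7 LSm2 to LSm8 genes lay below 0. A probe set each of snrpa1.S, snrpb2.L and lsm8.S lay above 0, at 0.20, 0.03 and 0.01.

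Snrpg.S, the SmG protein of the Sm ring, had log2 intensities of 12.65, 12.60, 12.65 and 12.45 on the cyclopamine arrays, against 13.05, 12.98, 12.68 and 12.85 on the ethanol arrays. The groups did not overlap, the means were 12.59 ± 0.0931 on the cyclopamine arrays and 12.89 ± 0.165 on the ethanol arrays (SD, n = 4 each), and the difference was -0.30 (SE 0.108, adjusted p = 0.726 by limma). Snrpd3.S, the SmD3 protein of the same ring, measured 9.65, 9.58, 9.56 and 9.15 on the cyclopamine arrays, against 9.96, 9.68, 9.59 and 9.74 on the ethanol arrays. Its groups overlapped, cyclopamine array 4 was the lowest, and the difference was -0.25 (SE 0.138, adjusted p = 0.871 by limma). Lsm2.L, from the U6 ring, measured 8.93, 9.20, 8.86 and 8.94 on the cyclopamine arrays, against 9.30, 9.22, 9.00 and 9.30 on the ethanol arrays, a difference of -0.22 (SE 0.114, adjusted p = 0.854 by limma). Its 2 probe sets gave -0.24 and -0.20. On the other side, lsm14b.S had a difference of 0.17 (SE 0.167, adjusted p = 0.937 by limma) and lsm12.L one of 0.14 (SE 0.233, adjusted p = 0.948 by limma), and both had overlapping groups.

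Among the 13 SF3 and U2AF genes, whose products hold the branch point and the 3′ splice site, 10 lay below 0. The median was -0.12, the value of sf3b4.S. A probe set of sf3b4.S at the floor on 7 arrays gave 0.07, and another gave -0.31. U2af1.S, the small U2AF subunit that reads the AG at the intron end, had log2 intensities of 11.12, 10.96, 11.12 and 11.13 on the cyclopamine arrays, against 11.46, 11.41, 11.23 and 11.39 on the ethanol arrays. The groups did not overlap, with a difference of -0.29 (SE 0.0912, adjusted p = 0.63 by limma). Sf3b4.L, an SF3B subunit, measured 10.56, 10.53, 10.47 and 10.30 on the cyclopamine arrays, against 10.75, 10.86, 10.53 and 10.75 on the ethanol arrays, and ethanol array 3 was inside the cyclopamine range. Its difference was -0.26 (SE 0.104, adjusted p = 0.766 by limma). Sf3a2.S, an SF3A subunit, lay on the other side in every pair, with a difference of 0.13 (SE 0.123, adjusted p = 0.937 by limma).

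The 13 PRPF and tri-snRNP genes, counted with cdc5l of the Prp19 complex, had 8 below, 5 above and a median of -0.02. Eftud2.S, the GTPase of the U5 snRNP, measured 10.73, 10.62, 10.48 and 10.29 on the cyclopamine arrays, against 11.08, 10.97, 10.61 and 10.50 on the ethanol arrays. The pools of clutch B were lower than those of clutch A on both sides, the treatment groups overlapped, and the difference was -0.26 (SE 0.162, adjusted p = 0.893 by limma). Prpf8.S, the large U5 protein at the catalytic centre, had a difference of 0.21 (SE 0.222, adjusted p = 0.937 by limma). Ethanol array 2 was the lowest of all at 9.82, and without it the difference was 0.04.

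Of the 17 SR genes, counted with the SR-related srrm1 and rnps1, 14 lay below 0, with a median of -0.05. Srrm1.S, a splicing coactivator that bridges SR proteins and snRNPs, had log2 intensities of 9.01, 9.01, 9.27 and 9.21 on the cyclopamine arrays, against 9.63, 9.29, 9.65 and 9.57 on the ethanol arrays. The highest cyclopamine array stayed just under the lowest ethanol array. The means were 9.13 ± 0.134 on the cyclopamine arrays and 9.53 ± 0.165 on the ethanol arrays (SD, n = 4 each), a ratio of 0.753, and the difference was -0.41 (SE 0.116, adjusted p = 0.582 by limma). Srsf7.L, an SR protein with a zinc knuckle, measured 9.23, 9.23, 9.46 and 9.20 on the cyclopamine arrays, against 9.82, 9.43, 9.61 and 9.48 on the ethanol arrays, a difference of -0.31 (SE 0.116, adjusted p = 0.732 by limma). Cyclopamine array 3 was above ethanol array 2, so the groups overlapped. Srsf6.L had no overlap and a difference of -0.19 (SE 0.0919, adjusted p = 0.833 by limma). On the other side, srsf5.S, with 3 probe sets all above 0, gave 0.15 (SE 0.181, adjusted p = 0.938 by limma). For srsf5a.L the difference was 0.31 (SE 0.192, adjusted p = 0.893 by limma). Without cyclopamine array 4 the differences were 0.04 for srsf5.S and 0.18 for srsf5a.L. Srsf5a.L measured 8.18, 7.98, 7.70 and 8.50 on the cyclopamine arrays, against 7.55, 7.68, 8.11 and 7.76 on the ethanol arrays, so that cyclopamine arrays 2 and 3 lay among the ethanol arrays.

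The 24 hnRNP genes, counted with ptbp1 and celf1, had a median of -0.12, and 21 of them lay below 0. Hnrnpdl.S, a relative of the AU-rich element binding protein hnRNP D, had log2 intensities of 11.95, 11.99, 11.95 and 11.62 on the cyclopamine arrays, against 12.21, 12.45, 12.25 and 11.99 on the ethanol arrays. The highest cyclopamine array and the lowest ethanol array were almost level, and the difference was -0.35 (SE 0.131, adjusted p = 0.732 by limma). Hnrnph3.L, an hnRNP of the G-run binding H family, had a difference of -0.21 (SE 0.0995, adjusted p = 0.833 by limma), and its 4 probe sets all gave negative values, between -0.26 and -0.17. Hnrnpab.L, an RNA-binding protein related to hnRNP D, gave -0.13 (SE 0.0867, adjusted p = 0.904 by limma). Hnrnpa3.L, of the hnRNP A/B family, was the highest of the class at 0.12 (SE 0.121, adjusted p = 0.937 by limma).

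The remaining classes were small. Of 5 helicase genes 4 lay below 0 (median -0.08). Ddx39a.L, a helicase of mRNA export, gave -0.24 (SE 0.178, adjusted p = 0.918 by limma), and ddx46.L, the helicase that remodels the U2 snRNP, gave -0.15 (SE 0.149, adjusted p = 0.937 by limma). Dhx15.L, which takes the spent spliceosome apart, was higher in 4 of 4 pairs, with a difference of 0.15 (SE 0.0946, adjusted p = 0.893 by limma). All 3 exon junction genes, whose proteins mark spliced mRNA upstream of the exon boundary, were lower in 4 of 4 pairs, and their median was -0.27. They come from only 2 symbols, magoh and rbm8a, so they do not stand for the whole exon junction complex. Magoh.L measured 10.90, 10.93, 10.86 and 10.63 on the cyclopamine arrays, against 11.25, 11.16, 11.05 and 10.98 on the ethanol arrays. The groups did not overlap, with a difference of -0.28 (SE 0.105, adjusted p = 0.732 by limma). Its partner rbm8a.S, whose value is the class median, gave -0.27 (SE 0.2, adjusted p = 0.917 by limma). The L copy, rbm8a.L, gave -0.08 (SE 0.16, adjusted p = 0.963 by limma).

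**Figure D2:**
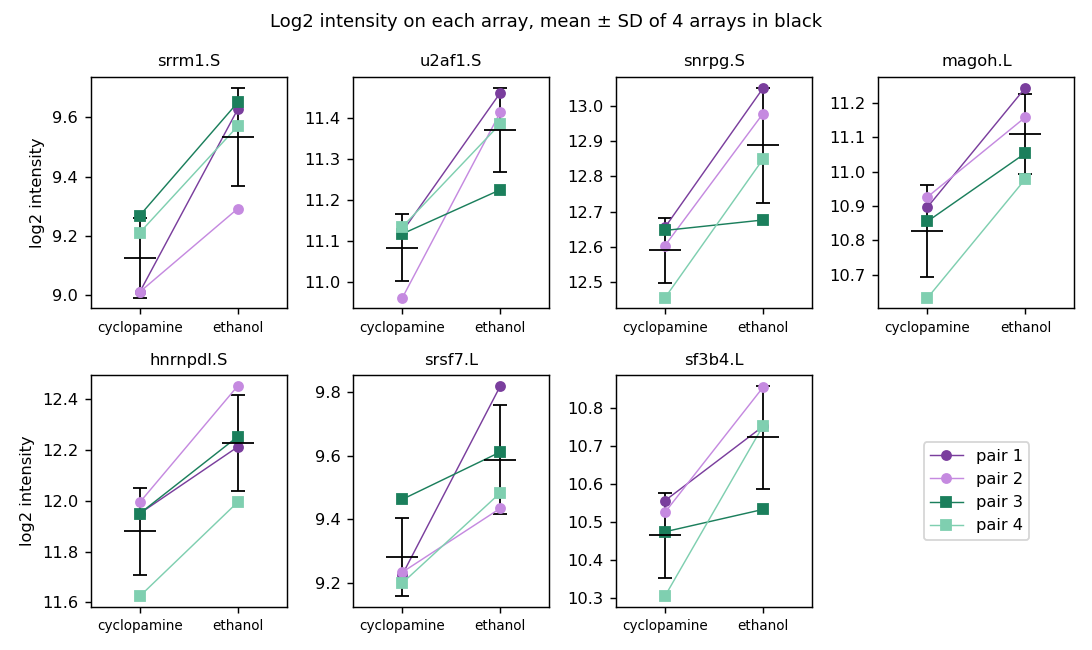
Log2 intensity (vertical axis, scaled per gene) of the 7 genes with an unadjusted p under 0.05, with the cyclopamine arrays left of the ethanol arrays, a line for each pair (circles clutch A, squares clutch B) and the mean ± SD of 4 arrays in black. All lines run upward toward ethanol, while the adjusted p-values are between 0.582 and 0.766.

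The pairs did not give the same picture for each class. Over all 98 genes the median differences were -0.19, -0.10, -0.11 and -0.04 in pairs 1 to 4, with 73, 72, 73 and 54 genes below 0, whereas the median over all genes tested was 0.00 in each pair. In pair 4 the classes parted. The snRNP and Lsm genes had their lowest median there, -0.25, with 18 of 23 below 0. The SR genes had a median of 0.04 in pair 4 and the hnRNP genes one of 0.01, with 6 of 17 and 12 of 24 below 0. In pairs 1 to 3 these medians were -0.17, -0.08 and -0.20 for the SR genes and -0.25, -0.05 and -0.20 for the hnRNP genes. The cartilage genes had a median of 1.31 in pair 4, against -0.10, -0.08 and 0.03 in pairs 1 to 3. The epidermal genes had one of -1.22 in pair 4, with 8 of 8 below 0, against 0.46, 0.54 and 0.19 in pairs 1 to 3. Whether the difference between pair 4 and the others has to do with the cartilage, epidermal or endothelial genes on cyclopamine array 4 was not tested. Without the arrays of pair 4 the class medians were -0.08 for snRNP and Lsm genes, -0.12 for SR genes and -0.15 for hnRNP genes.

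Set beside gene groups of growing cells, the splicing genes were between the extremes. The 37 replication and mitosis genes had a median difference of -0.39, with 36 below 0. At an unadjusted p under 0.05, 24 of them were lower, where 3.88% of all genes were. Their pair medians were -0.40, -0.28, -0.36 and -0.42. The 73 ribosomal protein genes had a median of 0.00, with 34 below 0. Their median log2 intensity was 14.33, near the highest of any gene tested, 15.195. Whether so bright a signal limited their differences was not tested. The other spliceosome and RNA-binding genes that the rule did not take up, 90 in number, had a median of -0.08, with 57 below 0. Of these 90, 5 had an unadjusted p under 0.05, each lower with cyclopamine, a count near the background of 3.88% of all genes. In the pairs, 26 of the 90 were lower in 4 of 4 and 3 higher, against 9.41% and 6.47% of all genes. With clutch as a block, 14 were lower at the unadjusted threshold and 0 higher, against 6.01% and 3.56% of all genes. The splicing genes gave 32 and 2 in the pairs, and 13 and 0 with that block. None of these lists held a gene past the adjusted threshold. These lists came from the same arrays as the splicing genes, and the difference between the lists was not tested.

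**Figure D3:**
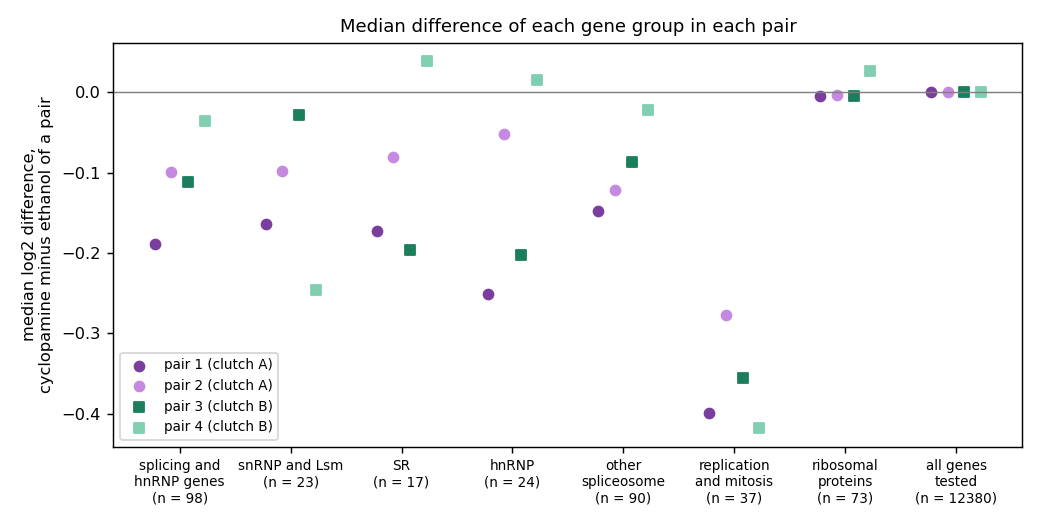
Median log2 difference, cyclopamine minus ethanol, in each of the 4 pairs (vertical axis) for the splicing and hnRNP genes, 3 of their classes and 4 comparison groups, with circles for clutch A and squares for clutch B. The splicing genes lie between -0.19 and -0.04, replication and mitosis genes between -0.42 and -0.28, and all genes at 0.00.

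For 21 symbols both the L and the S copy were tested, which allowed the copies to be read side by side. In 16 both copies had the same sign with cyclopamine, 14 of these below 0, and in 5 the signs were opposite. The copies lay furthest apart for srrm1, with 0.02 for the L copy and -0.41 for the S copy. Srrm1.L measured 8.24, 8.31, 8.04 and 8.65 on the cyclopamine arrays, against 8.51, 8.14, 8.25 and 8.27 on the ethanol arrays, so that its groups overlapped, unlike those of srrm1.S given above. For srsf5a the L copy gave 0.31 and the S copy -0.05, and for hnrnpdl the L copy gave -0.11 and the S copy -0.35. The closest copies were those of snrpb, at -0.04 and -0.05, and hnrnpc, at -0.15 and -0.16. The difference between copies was not itself tested, and copies of near-identical sequence may share signal on the array, which was not tested either. Different probe sets of 1 gene also disagreed: of 28 genes with several probe sets, 10 had both signs.

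**Figure D4:**
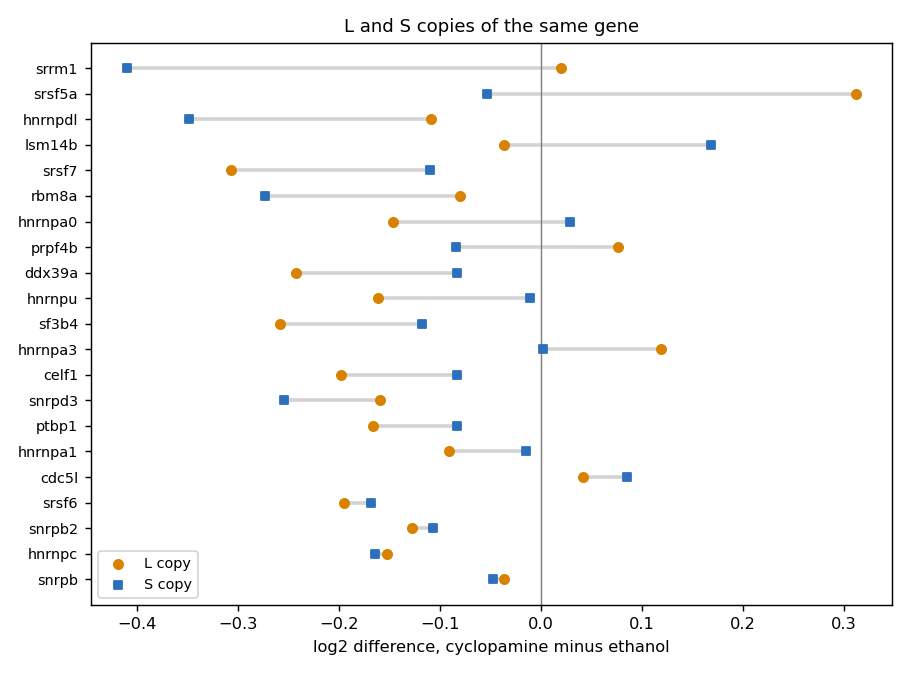
Log2 difference, cyclopamine minus ethanol (horizontal axis), of the L copy (circles) and the S copy (squares) of 21 genes, ordered by the distance between copies. Both copies lie below 0 for 14 genes, and srrm1, srsf5a and hnrnpdl lie furthest apart.

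More genes passed the test between clutches than between treatments. With treatment in the fit, 66 genes were higher in clutch B (0.533%) and 93 lower (0.751%) at an adjusted p under 0.05, among them 2 splicing genes, both lower. Srsf10.S, an SR-like protein known in vertebrates to repress splicing during mitosis and heat shock, had log2 intensities of 9.36 and 9.42 on the cyclopamine arrays and 9.79 and 9.73 on the ethanol arrays of clutch B, against 10.20 and 10.10 on the cyclopamine arrays and 10.30 and 10.27 on the ethanol arrays of clutch A. The clutches did not overlap, and the means were 9.57 ± 0.215 in clutch B and 10.22 ± 0.0876 in clutch A (SD, n = 4 each), a difference of -0.64 (SE 0.0852, adjusted p = 0.025 by limma). Lsm8.S, the LSm subunit that sets the nuclear U6 ring apart from the cytoplasmic one, measured 8.29 and 7.80 on the cyclopamine arrays and 8.33 and 8.11 on the ethanol arrays of clutch B, against 8.76 and 9.09 on the cyclopamine arrays and 8.97 and 9.01 on the ethanol arrays of clutch A, and fell by 0.82 in clutch B (SE 0.137, adjusted p = 0.0437 by limma). Its 3 probe sets disagreed, with differences of -0.01, -1.07 and -1.40, and taken from the brightest of them alone the difference was -0.01. When any 1 of the 8 arrays was left out both calls were lost, with an adjusted p between 0.0531 and 0.087 for srsf10.S and between 0.0733 and 0.131 for lsm8.S. Over all alternatives the adjusted p was between 0.0149 and 0.087 for srsf10.S and between 0.0377 and 0.947 for lsm8.S.

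At an unadjusted p under 0.05, 9 splicing genes were higher in clutch B and 18 lower, where the background was 9.8% and 12.1% of all genes. The snRNP and Lsm genes and the hnRNP genes took opposite sides, while some of the other classes were split. The SR genes had 9 of 17 below 0 (median -0.0024), the PRPF and tri-snRNP genes 7 of 13 and the SF3 and U2AF genes 6 of 13. Of the helicase genes 4 of 5 lay above 0 (median 0.14). Of the snRNP and Lsm genes 20 of 23 lay below 0 (median -0.21), including 11 of 12 snrp genes and all 7 of LSm2 to LSm8. The 3 exon junction genes lay below 0 as well, with -0.51 (SE 0.0923, adjusted p = 0.0542 by limma) for rbm8a.S and -0.40 (SE 0.0782, adjusted p = 0.0612 by limma) for rbm8a.L. Of the hnRNP genes 19 of 24 lay above 0 (median 0.12), hnrnpa0.S being an exception at -0.51 (SE 0.0904, adjusted p = 0.0518 by limma). The median over all genes was -0.01. The hnRNP side depended on the scaling of the arrays: with array medians subtracted in place of quantile normalisation, 13 of 24 lay above 0 with a median of 0.02, while 21 of 23 snRNP and Lsm genes lay below 0 with a median of -0.35.

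Above 0 in clutch B were also ddx39a.L at 0.44 (SE 0.0913, adjusted p = 0.0679 by limma), sf3a3.S, an SF3A subunit, at 0.48 (SE 0.109, adjusted p = 0.0785 by limma) and ddx46.L at 0.35 (SE 0.0822, adjusted p = 0.0834 by limma). Cdc5l.S, a component of the Prp19 complex, gave 0.37 (SE 0.094, adjusted p = 0.0928 by limma), and sf3b1.S, the large SF3B subunit, gave 0.31 (SE 0.0906, adjusted p = 0.116 by limma). None of these passed the adjusted threshold. The 2 probe sets of ddx39a.L gave 0.73 and 0.15. Of the 21 symbols with both copies, 11 had the same sign between clutches. Clutch is a matter of 1 brood each, so that parentage, the rearing of that brood and its exposure tanks cannot be told apart. The p-values between clutches measure the spread between pools within these broods, not the spread between broods. Of the marker genes, 12 of 13 for limb mesenchyme lay above 0 in clutch B (median 0.16, array means of 8.41 to 8.67 in clutch B and 8.10 to 8.58 in clutch A), as did 4 of 4 for endothelium (median 0.23, array means of 6.82 to 7.19 in clutch B and 6.56 to 6.80 in clutch A). The same held for 7 of 12 muscle genes (median 0.40, array means of 7.58 to 8.50 in clutch B and 7.30 to 8.69 in clutch A) and 4 of 6 cartilage genes (median 0.23, array means of 8.41 to 9.64 in clutch B and 8.56 to 8.85 in clutch A). None passed the adjusted threshold, and the part of these tissues in the clutch differences of the splicing genes was not tested.

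**Figure D5:**
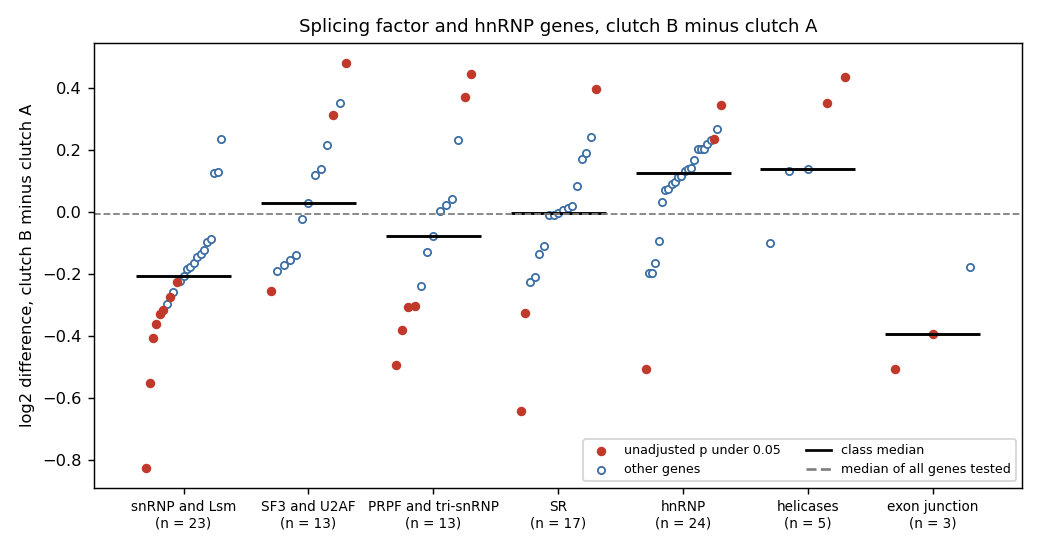
Log2 difference, clutch B minus clutch A, of each of the 98 genes by class (vertical axis), with red points for an unadjusted p under 0.05, black bars for class medians and a dashed line for the median of all genes tested. The snRNP and Lsm genes and the exon junction genes lie mostly below 0, the hnRNP genes mostly above, and the SR genes on both sides.

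Whether the response to cyclopamine differed between clutches was tested as an interaction. No splicing gene passed the adjusted threshold, and neither did any other gene in limma. At an unadjusted p under 0.05 there was 1 splicing gene, where 3.72% of all genes passed. It was cdc5l.L, named for that reason, with log2 intensities of 7.27, 7.15, 6.85 and 6.86 on the cyclopamine arrays, against 6.85, 6.94, 6.99 and 7.20 on the ethanol arrays. It was higher with cyclopamine in both pairs of clutch A and lower in both pairs of clutch B, an interaction of -0.56 with an adjusted p of 0.999.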

How the data were processed

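Pools of hindlimb buds were hybridised to Affymetrix X. laevis arrays, 1 pool per array. The deposited intensity values, 1 per probe set and array, are described per the labels as normalized expression values. No source used here names the software behind them, and all arrays had a trimmed mean close to 500. For the analysis, 120 control probe sets were left out, intensities were quantile normalised between arrays, values under the 20th percentile (43.7) were raised to it and log2 was taken. Genes came from the platform annotation: 9304 probe sets had 1 symbol, 195 several and 5992 none. Probe sets of a gene were averaged, and 1338 genes at the floor on every array were left out. All 142 probe sets of the splicing genes had a gene ID found in the RefSeq gene table. Another 3 probe sets with several symbols matched the naming rule and were not used.

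The fit was limma 3.58.1 in R 4.3.3 (lmFit and eBayes) over all 12380 genes, treatment alone in the main fit, treatment and clutch for the clutch difference, and both with their product for the interaction, with Benjamini-Hochberg adjustment. Samples were grouped by their labels. P-values measure the spread between pools. Pairing followed from the design, in which a pair was exposed and processed together. Over all genes tested, deviations from group means correlated within pairs 1 to 4 at 0.349, 0.511, 0.297 and -0.0954. Over the splicing genes alone these correlations were 0.429, 0.658, 0.456 and 0.416. The deviations still held the clutch difference, so these correlations cannot tell pair from clutch. Alternatives were no or median scaling, a floor at the 10th percentile, other filters, the brightest probe set of a gene, pair or clutch as a block, a two-sample test named in the methods, and each array left out. Scripts were tested on simulated data. Genes were named by p within class and by clutch p, and only a part of them is given. The genes, lists and rules were chosen with earlier results of these data known. The number of arrays limits the precision. No sequence or genome position was used here.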

Additional observations from a re-analysis of the deposited data

Results flagged for a closer look

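In 7 of 84 groups of 4 arrays, taken over the genes picked by the naming rules, 1 array lay far from the other 3 relative to the group's range (Dixon's test at the 95% level, which chance alone passes in about 1 of 20 groups). On the cyclopamine side, u2af1.S was 10.96 on array 2, with the next array at 11.12. Srsf6.L was 10.7 on array 1 with the next at 10.86, and hnrnpdl.S was 11.62 on array 4 with the next at 11.95. These 3 far arrays were the lowest of their group. Sf3b6.S at 9.08 and srsf7.L at 9.463 were the highest of their group, both on cyclopamine array 3, with the next arrays at 8.80 and 9.23. On the ethanol side, prpf31.S was 7.65 on array 1 with the next at 7.18, and prpf8.S was 9.816 on array 2 with the next at 10.46.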

How the results depend on the processing

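No splicing gene passed the adjusted threshold for cyclopamine under any alternative run, and the median over the 98 genes stayed below 0 in all of them, between -0.13 and -0.07 with 1 array left out. Of the 98 genes, 61 had the same sign under every alternative, 53 of them below 0. Genes past the threshold for cyclopamine numbered 4 with clutch as a block, 1 by the methods' t-test and 1 to 2 with 1 array left out. Splicing genes lower at an unadjusted p under 0.05 numbered 13 with clutch as a block, 4 with the lower floor and 3 to 10 with 1 array left out, and those higher 0 to 1. The share of all genes lower in these fits was 6.01% with clutch as a block, 3.39% with the lower floor and 2.88% to 5.05% with 1 array left out, so that the smallest counts were near the background. With the replicate block, which uses the pairing, 10 were lower and 0 higher, against 5.48% and 3.47% of all genes, the lowest adjusted p was 0.519, and no call among the splicing genes changed. For the clutches, genes past the threshold numbered 64 with the lower floor and 14 to 72 with 1 array left out. The splicing genes among them numbered 0 with the lower floor, 1 with values as deposited, 1 with the brightest probe set, 4 with no filter and 0 to 1 with 1 array left out. With pairs as a random replicate block, 176 genes and 3 splicing genes passed. The SR clutch median, -0.0024, was 0.0018 with the lower floor, 0.0060 with the brightest probe set and -0.0496 to 0.0615 with 1 array left out. Srrm1.L was -0.10 without pair 4 and -0.0942 to 0.109 with 1 array left out, and srsf5a.S was -0.164 to 0.0381. The cause of these moves was not tested. Dim signal limits prpf31.S, with 1 probe set at the floor on 5 arrays, and sf3b4.S, with 1 at the floor on 7 arrays.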
